A study of Mus musculus with 6 samples.

Results

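The 4 adult globin genes of the mouse, Hbb-bs, Hbb-bt, Hba-a1 and Hba-a2, were followed through a single-cell RNA sequencing dataset of the retina. They were 4 of 52636 genes in the count table and were taken by name. Hbb-bt was singled out because earlier results of these data, other than those of the study, had called it between genotypes in photoreceptors. The study itself reported no significant gene in photoreceptors and listed no globin for another cell type. The genotype contrast is therefore a description here, with no p value for a globin and with counts of called genes that support nothing. The cells came from 6 retinas of 12-month-old male C57BL/6J mice, 3 Dram2 wt/wt (labelled Dram2 WT) and 3 Dram2 ko/ko (labelled Dram2 KO). The ko/ko strain carries a constitutive CRISPR/Cas9 deletion of the region of exon 4 in every cell, and no other allele or agent was given. Retinas were digested with papain, filtered to remove clumps and loaded on a droplet kit that counts the 3′ end of each transcript by its unique molecular identifier (UMI). The design text calls the tissue choroid and the protocol text counts 1 sample per genotype, against the 6 labelled retinas that were used here. The labels do not say whether the replicates came from separate mice, so p values measure the spread between these 6 retinas.

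Haemoglobin is made of alpha and beta globin chains, each holding a haem group that binds oxygen. In adult mice Hba-a1 and Hba-a2 encode alpha chains, and Hbb-bs and Hbb-bt encode beta chains. Their transcripts are among the most abundant of the red cell lineage, and reticulocytes in the circulation still hold them, which is why blood left in a dissociated tissue is usually seen through them. In droplet sequencing, RNA released from broken cells can also enter any droplet, so a globin UMI in a cell does not by itself show that the cell made it.

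The beta genes lie on the minus strand of chromosome 7 of GRCm38, Hbb-bs from 103826534 to 103828096 and Hbb-bt from 103812524 to 103813996 (annotation GENCODE M21). The alpha genes lie on the plus strand of chromosome 11, Hba-a1 from 32283511 to 32284465 and Hba-a2 from 32296489 to 32297298. In each pair the coding sequences differed at 1 base, of 444 in the beta pair and of 429 in the alpha pair. The following stretches of 30 coding bases, all in exon 3 of 3, are shown because they hold that base, in capitals. They correspond to coding bases 388 to 417 of the beta genes (chr7:103826692-103826721 and chr7:103812683-103812712, minus strand) and 352 to 381 of the alpha genes (chr11:32284314-32284343 and chr11:32297131-32297160, plus strand).
Hbb-bs: gccttccagaaggtggtggctggagtggcC
Hbb-bt: gccttccagaaggtggtggctggagtggcT
Hba-a1: ttcacccccgcggtgcatgcctctctggaC
Hba-a2: ttcacccccgcggtgcatgcctctctggaT
The bases after the coding sequence were less alike, with 70.5% identity in the beta pair and 82.2% in the alpha pair. Of the 91-base windows along the transcript, 63.2% of those of Hbb-bs occurred unchanged in Hbb-bt, and 76.9% of those of Hba-a2 occurred in Hba-a1. None occurred in a gene of the other pair. The split between Hbb-bs and Hbb-bt, and between Hba-a1 and Hba-a2, is therefore uncertain, since a read inside a shared window cannot be placed in 1 copy. No read can be confused between alpha and beta in this way. Reads that could not be placed may have gone uncounted, and the shared part was unequal. It was 58.6% of the windows of Hba-a1 and 55.5% of those of Hbb-bt. The ratio of alpha to beta may therefore be affected too, which was not tested.

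The 110 bases before the start site in RefSeq (GRCm38.p6) are shown for the leading beta gene and for 1 alpha gene, since globin promoters are known for the motifs they share. Capitals mark CACCC, the letters of the box bound by the erythroid factor Klf1, CCAAT, and the TATA-box letters ATATAA, searched on both strands. The windows are chr7:103827929-103828038 (minus strand) and chr11:32296382-32296491 (plus strand), and some of their bases lie in exons of GENCODE transcripts that begin further upstream.
Hbb-bs: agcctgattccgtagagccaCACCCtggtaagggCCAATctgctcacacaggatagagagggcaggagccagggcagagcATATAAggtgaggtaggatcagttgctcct
Hba-a2: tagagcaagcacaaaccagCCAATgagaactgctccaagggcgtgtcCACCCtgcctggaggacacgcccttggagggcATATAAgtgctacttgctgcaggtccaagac
ATATAA began 30 bases before the start of Hbb-bs and 31 before that of Hba-a2. All 4 globin genes held the 3 motifs in this window, and 0.228% of 32851 such windows in RefSeq held them together. Singly, CACCC was found in 29.6%, CCAAT in 20.2% and ATATAA in 4.09% of those windows. GATAA, the core letters of a GATA site, was in none of the 4 windows and in 9.43% of all. A match is a description of the letters only.

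The 6 retinas gave 46375 cells and 28002465 UMIs, 3463728 to 6563762 per retina. Replicate 3 of each genotype belonged to batch 1 and replicates 1 and 2 to batch 2, as the labels give it. Mitochondrial genes took 0.405% to 0.720% of UMIs in batch 2 and 2.75% and 3.22% in batch 1. Levels are in CPM, which is UMIs out of every 1000000 of the same cells. Dram2 was counted at 27.8, 34.8 and 56.0 CPM in wt/wt and 27.4, 34.02 and 53.5 CPM in ko/ko. The reads come from the 3′ end of the transcript, outside the deleted exon, so these values check nothing about the deletion. The deposited cell names carry no barcode, so cell barcodes shared between libraries could not be counted. Rod RNA was abundant, with Sag, the rod arrestin, at 10362 CPM in photoreceptors.

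The 4 globins together held 32926 UMIs, 0.118% of all. Hbb-bs took 23345 of them (70.9%), Hbb-bt 2378 (7.22%), Hba-a1 3543 (10.8%) and Hba-a2 3660 (11.1%). Levels between these genes are compared as UMIs, which count transcripts by their 3′ end and need no correction for length.

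Nearly all of these UMIs sat in very few cells. Across the 6 retinas, 44712 cells had no globin UMI, 1584 had 1, 45 had 2, 2 had 3 and 1 had 4. No cell had 5 to 9, and 31 cells had between 16 and 4149. Cells with at least 10 globin UMIs, called globin-rich here, were these 31, so they made up 0.0668% of cells and held 31242 globin UMIs, 94.9% of the total. A minimum of 5 takes the same 31 cells, since none lies between. The globin-rich cells were chosen by their globin UMIs, so these shares are a description.

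**Figure D1:**
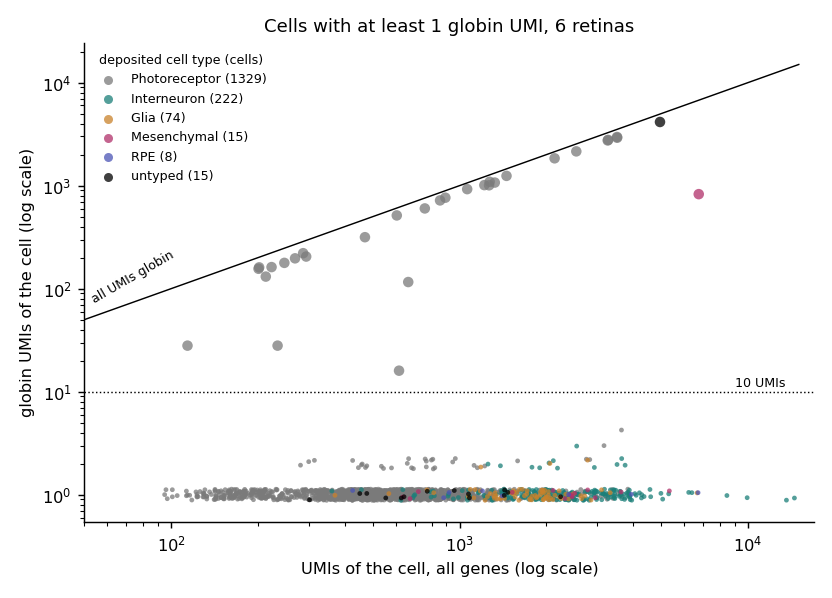
Globin UMIs against all UMIs of each cell that held at least 1 globin UMI, on log scales, coloured by deposited cell type. Points of 1 to 4 globin UMIs are spread a little up and down so that they can be seen. The 31 globin-rich cells lie above the dotted line at 10 UMIs, most of them just under the line where every UMI is globin, and all other cells lie at 4 or below.

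Each retina had such cells. There were 8, 3 and 4 in wt/wt replicates 1, 2 and 3 and 9, 4 and 3 in the ko/ko replicates. They held 95.05%, 94.7% and 95.4% of the globin UMIs of the wt/wt retinas and 94.0%, 95.7% and 94.6% of those of the ko/ko retinas. The mean was 94.9% ± 0.595 (SD, n = 6), on a scale near its upper end and over cells chosen by their own globin UMIs. A single cell held 83.3% of the globin UMIs of wt/wt 2, 74.7% of ko/ko 3, 62.2% of ko/ko 2, 47.6% of ko/ko 1, 37.0% of wt/wt 3 and 27.3% of wt/wt 1. The level of a globin gene in a whole retina thus came mostly from 3 to 9 cells.

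The variance of UMIs per cell divided by its mean, which is 1 for molecules scattered independently over equal droplets, was then taken gene by gene. For Hbb-bs it ran from 780 to 2335 over the 6 retinas and ranked 1 in each among genes with at least 50 UMIs. It was 66.1 to 358 for Hbb-bt, 133 to 289 for Hba-a1 and 115 to 318 for Hba-a2, against 40.9 to 88.3 for Malat1, a nuclear long noncoding RNA. Without the globin-rich cells the ratio for Hbb-bs fell to between 0.982 and 1.05. With 141 to 334 Hbb-bs UMIs left per retina, nearly all as single UMIs, and the high cells removed by their own counts, a value near 1 is fixed by that choice and nothing is read from it.

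The UMIs of the globin-rich cells ran from 114 to 6750 with a median of 856, and the globin share of a cell from 2.59% to 87.0% with a median of 79.7%. In 26 of the 31 cells the 4 globins made up 61.5% to 87.0% of the UMIs. The UMIs outside these 4 genes were 41 to 805 per cell in the 26, with a median of 155.5. They were 6097 in all, and 1596 of them were Hba-x, a further haemoglobin chain. The other 5 had 2.59% to 24.6% globin and 86 to 5923 other UMIs, with a median of 548. They were 3 cells of ko/ko 1 with 116, 28 and 28 globin UMIs and 2 cells of ko/ko 2 with 827 and 16. The cell just inside the limit had 16 globin UMIs of 617, and the cell with the most below it had 4.

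The deposited cell types did not set these cells apart. Photoreceptor was the label of 29, Mesenchymal of 1 and 1 had no type, while interneurons, glia and retinal pigment epithelium (RPE) cells had none. Photoreceptors were 42359 of all cells, so 0.0685% of them were globin-rich. Non-globin UMIs are those outside the 4 adult globins. Per 1000 of them, the marker lists of photoreceptors, glia, interneurons and RPE cells were all lower in these cells than in the rest. Without the 1 cell labelled Mesenchymal each gap was smaller. These non-globin UMIs still hold other haemoglobin RNA. Other haemoglobin chains alone were 133 per 1000 in the 31 cells, and 227 per 1000 without the Mesenchymal-labelled cell. The lower rates are therefore not read as fewer retinal transcripts in the rest of the RNA. For the lists as a whole, leaving it out was not tested. The 8 photoreceptor markers made up 21.8 of every 1000 non-globin UMIs in the 31 cells and 46.6 in all other cells, of whatever type. Sag was at 4.53 per 1000 non-globin UMIs in the globin-rich cells against 8.35 in all others, and Gnat1, the rod transducin, at 2.90 against 4.99. Without the Mesenchymal-labelled cell, a choice made after seeing the data, the 8 markers together were at 35.7 per 1000, Sag at 7.43 and Gnat1 at 4.91. Of the 7538 non-globin UMIs then left, 1713 were of other haemoglobin chains, 56 of Sag and 37 of Gnat1. Out of the remainder, Sag and Gnat1 would lie above their rates in other cells. With 293 UMIs the photoreceptor markers were still the largest of the retinal lists in these cells. Glia markers had 29 UMIs (2.15 per 1000 against 3.93 elsewhere), interneuron markers 4 (0.297 against 1.13) and RPE markers 2 (0.149 against 0.655). Without the Mesenchymal-labelled cell these lists were at 2.39, 0.398 and 0.265 per 1000. The cone transducin gene Gnat2 was at 0. The cells are therefore named by their globin content and given no cell type.

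The globin-rich cell without a type, in ko/ko 3, had 4954 UMIs, of which 4149 were globin. Hbb-bs had 2987 UMIs in it, Hbb-bt 414, Hba-a1 340 and Hba-a2 408, and Alas2, the first enzyme of haem synthesis in the red cell lineage, had 5. The globin-rich cell labelled Mesenchymal, in ko/ko 2, was of another kind. It held 6750 UMIs, more than any other cell of its retina, and 3101 genes. Of its UMIs 827 were globin, 312 Malat1, 37 Rgs5 (a pericyte gene), 16 Cldn5 (a tight-junction gene of endothelium) and 12 Flt1 (an endothelial receptor). All 68 UMIs of 5 pericyte and smooth muscle markers and all 47 of 7 endothelial markers that the 31 cells held were in this 1 cell. Whether it was 1 droplet with more than 1 cell was not tested.

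Other genes of the red cell lineage were counted in the globin-rich cells in small numbers. Alas2 had 39 of its 47 UMIs there, in 19 of the 31 cells. Ube2l6, a ubiquitin-conjugating enzyme, had 12 of 65, from 3 cells and with 7 of them in 1. The nuclease gene Isg20 had 6 of 37, from 5 cells. Bpgm, which makes the 2,3-bisphosphoglycerate that lowers the oxygen affinity of haemoglobin, had 20 UMIs in 10 cells. Scaled to all UMIs of these cells that was 447 CPM, against 102 CPM in other cells. Mkrn1, a ubiquitin ligase gene, was at 693 against 116 CPM, Fech, the last enzyme of haem synthesis, at 224 against 22.5, and Bnip3l, a mitophagy receptor used when reticulocytes clear their mitochondria, at 246 against 85.6.

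Of the 24 genes on the red cell and reticulocyte list 22 were in the table, and 11 of those had a higher CPM in the globin-rich cells. Car2, a carbonic anhydrase that retinal cells also express, had 4 UMIs there, 0.297 per 1000 non-globin UMIs against 0.717 in other cells. Slc4a1, the red cell anion exchanger, and Hemgn had 0 UMIs in every cell of the series, and Rhag, Tfrc, Xpo7 and Tspan33 had 0 in the globin-rich cells. With 44703 UMIs in these cells, a count of 0 allows up to 67.1 CPM, above the 51.1 CPM of Tfrc in other cells. The list as a whole held 153 UMIs there, 11.4 per 1000 non-globin UMIs against 1.14 elsewhere. The Mesenchymal-labelled cell alone gave 5923 of the 13461 non-globin UMIs, and without it the list was at 19.4 per 1000 (146 of 7538 UMIs).

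Other haemoglobin chains followed the 4 adult genes closely. Hba-x, the embryonic zeta chain, had 1704 of its 1711 UMIs in the globin-rich cells and was found in all 31 of them, with 2 to 174 UMIs per cell. That was 78.1 per 1000 Hbb-bs UMIs. Hbb-bh2 had 43 of 43 there, Hbb-y 25 of 25 and Hbb-bh1 17 of 20. Hbq1a and Hbq1b had 1 and 2 UMIs in all. The unprocessed pseudogenes Hba-ps4 (380 of 390) and Hbb-bh3 (274 of 277) behaved alike and were named after their values were seen. Hba-x, Hba-ps4 and Hbb-bh3 shared no 91-base window with the 4 adult globins, and the coding sequence of Hba-x was 62.0% identical to that of Hba-a1. Reads with mismatches were not looked at.

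Of the globins of nerve and other tissues, Cygb, cytoglobin, had 3 of its 1471 UMIs in globin-rich cells, all in the 1 labelled Mesenchymal, which scales to 67.1 CPM against 52.5 CPM in other cells. Ngb, neuroglobin, had 80 UMIs and Mb, myoglobin, 2, all outside, and at such levels the 44703 UMIs of the globin-rich cells were too few to show them. The same holds for genes of other blood cells, of which a count of 0 or 1 tells little in 13461 non-globin UMIs. The 5 platelet genes had 1 UMI there (0.0743 per 1000 non-globin UMIs) and 918 elsewhere (0.0328 per 1000). Of the latter Gp1bb gave 810, Itga2b 50 and Pf4 42. Gp1bb was at 152 CPM in interneurons, 187 in untyped cells and 0.0949 in photoreceptors, so its UMIs are not read as platelets. The 6 neutrophil genes had 1 (0.0743 per 1000) and 1031 (0.0369 per 1000), led by S100a8 (418), S100a9 (304), Lcn2 (265) and Retnlg (33). The 5 lymphocyte and leukocyte genes had 0 and 75, of which Cd79a gave 36, and all 7 microglia markers were at 0. Of the 8 genes that handle haem and haemoglobin only Blvra and Blvrb, which act on biliverdin, had a UMI in globin-rich cells, 1 each. Hmox1, the inducible haem oxygenase, had 122, Hmox2 1419 and Alas1 953, all in other cells.

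Among genes with at least 10 UMIs in the globin-rich cells, those with the largest ratio to other cells apart from globins included Alas2 (872 against 0.286 CPM), Ube2l6 (268 against 1.90), Cd24a (313 against 2.54) and Higd1b (246 against 6.65). Cd24a encodes a surface protein that red cells carry. Its 14 UMIs came from 4 cells and 8 of them from 1. Higd1b, a pericyte gene, came from the 1 cell labelled Mesenchymal alone.

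Outside the globin-rich cells 46344 cells held 1684 globin UMIs, 5.11% of the total, in 1632 cells of which 97.1% had exactly 1. The level was 85.4, 43.6 and 66.1 CPM in wt/wt replicates 1 to 3 and 101, 34.3 and 46.1 in the ko/ko replicates. The genotypes overlapped, and the means were 65.01 ± 20.95 CPM for wt/wt and 60.5 ± 35.7 CPM for ko/ko (SD over 3 retinas each). The 4 retinas of batch 2 covered 34.3 to 101 and the 2 of batch 1 were 46.1 and 66.1, inside that range. Exact 95% Poisson intervals, which cover counting error only, were 90.9 to 112 for ko/ko 1 and 29.1 to 40.3 for ko/ko 2, so these retinas differed by more than counting error.

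Every cell type held this low level. Over all retinas it was 63.4 CPM in photoreceptors, 55.1 in interneurons, 49.6 in glia, 52.9 in RPE cells, 26.5 in mesenchymal cells and 37.4 in cells without a type, with the globin-rich cells left out. The means over 6 retinas were 65.9 ± 27.7 (SD) in photoreceptors, 62.1 ± 39.2 in interneurons, 49.1 ± 27.7 in RPE cells, 47.6 ± 20.4 in glia, 33.5 ± 31.4 in untyped cells and 27.9 ± 20.3 in mesenchymal cells. Every step between neighbours in that order was smaller than the SD of either. Within a retina, photoreceptors were above interneurons in 5 of 6, above glia in 5 of 6, above RPE cells in 4 of 6 and above mesenchymal and untyped cells in 6 of 6. Mesenchymal, RPE and untyped cells had 14, 8 and 14 globin UMIs in all. The exact Poisson interval was 14.5 to 44.4 CPM for mesenchymal cells, below the 60.01 to 66.9 CPM of photoreceptors. For RPE cells (22.8 to 104 CPM) it took in that range, and for untyped cells (20.5 to 62.8 CPM) it overlapped it. These intervals pool 6 retinas, cover counting error only and set side by side cells of unlike depth. The median was 1905 UMIs in mesenchymal cells and 428 in photoreceptors. Photoreceptors of 2000 UMIs or more were at 43.0 CPM, inside the mesenchymal interval.

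**Figure D2:**
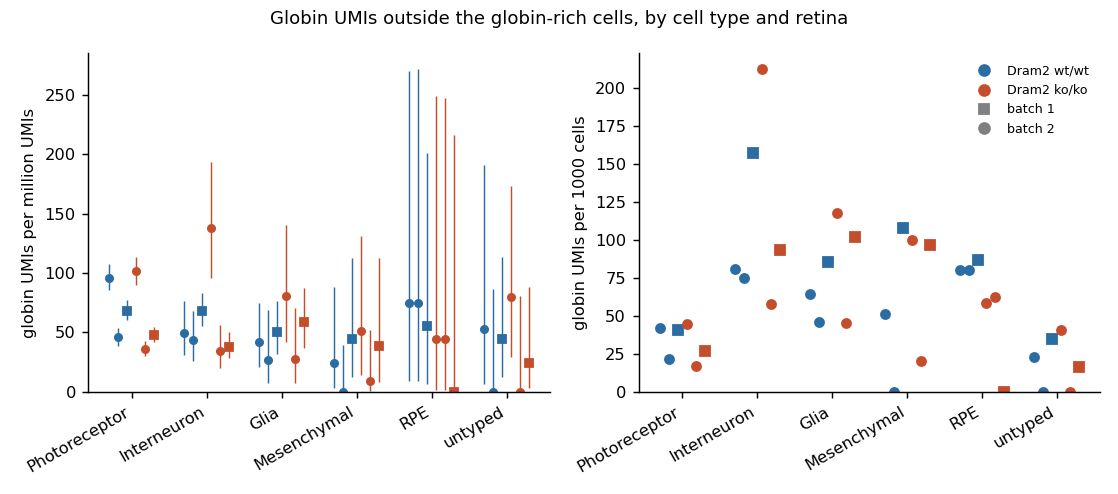
Globin UMIs outside the globin-rich cells for each deposited cell type and retina, as CPM with exact 95% Poisson intervals on the left and per 1000 cells on the right. Points stand for single retinas, blue for Dram2 wt/wt and orange for Dram2 ko/ko, squares for batch 1 and circles for batch 2. As CPM the types overlap, and per 1000 cells interneurons reach 212.5 where photoreceptors stay at or below 44.4.

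Per cell the order was another. Photoreceptors had 31.6 globin UMIs per 1000 cells, interneurons 113, glia 81.7, RPE cells 69.0, mesenchymal cells 57.1 and untyped cells 22.3. These types also differed in depth, with medians of 428, 1844, 1683, 1121.5, 1905 and 506 UMIs per cell in the same order. Interneurons were above photoreceptors per cell in 6 of 6 retinas and below them in CPM in 5 of 6. The share of cells with a globin UMI was 3.20% ± 1.17 (SD, n = 6) in photoreceptors and 10.6% ± 5.25 in interneurons. When every cell was thinned to 500 UMIs, and 25689 photoreceptors and 84 interneurons with fewer were left out, the shares were 2.95% ± 1.09 and 3.20% ± 2.14 (SD, n = 6). Glia went from 7.46% to 2.64%, RPE cells from 6.14% to 2.26% and mesenchymal cells from 6.60% to 2.59%. The difference between types in the share of positive cells was thus within the spread between retinas at equal depth.

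Depth was followed within photoreceptors, where 42330 cells were not globin-rich. Globin UMIs per 1000 cells were 16.5 in cells under 300 UMIs, 31.6 from 300 to under 500, 38.3 from 500 to under 1000, 66.1 from 1000 to under 2000 and 114 in cells of 2000 or more. As CPM they went the other way, 85.5, 78.2, 56.3, 50.6 and 43.0 in the same bins. These bins pool retinas of different depth and globin level. In each of the 4 retinas of batch 2 the CPM fell from bin to bin up to 2000 UMIs. It did not fall steadily in batch 1, where wt/wt 3 had 88.3, 70.7, 60.7, 70.2 and 73.9 CPM and ko/ko 3 had 37.3, 44.0, 52.8, 50.04 and 30.9 CPM. Malat1 was at 187073, 159479, 124597, 96873 and 76521 CPM in the pooled bins.

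The low level outside the globin-rich cells did not have the composition of those cells. In the globin-rich cells 69.8% of globin UMIs were Hbb-bs, 7.34% Hbb-bt, 11.2% Hba-a1 and 11.6% Hba-a2. In all other cells 90.97% were Hbb-bs (1532 UMIs), 4.99% Hbb-bt (84), 2.08% Hba-a1 (35) and 1.96% Hba-a2 (33). The alpha chains made up 22.5%, 24.5% and 20.3% of globin UMIs in the globin-rich cells of wt/wt replicates 1 to 3 and 28.4%, 22.2% and 20.5% in those of the ko/ko replicates. Outside they made up 5.09%, 3.43% and 4.56% in wt/wt and 4.29%, 4% and 2.32% in ko/ko. The 2 ranges were far apart in each of the 6 retinas and in both batches, with means of 23.1% ± 3.05 and 3.95% ± 0.972 (SD, n = 6).

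**Figure D3:**
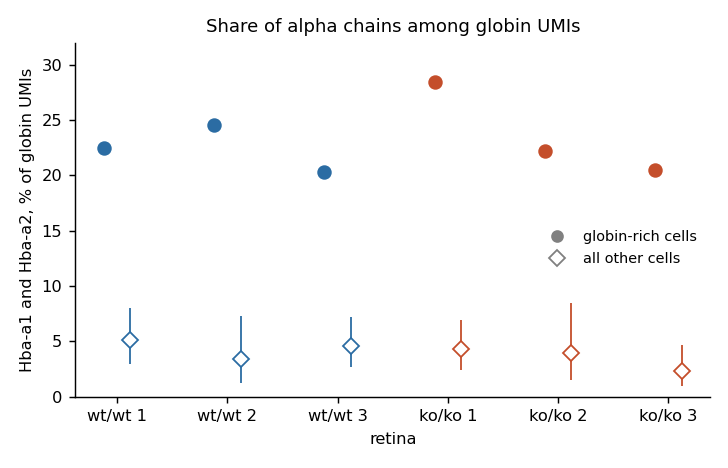
Share of Hba-a1 and Hba-a2 among the UMIs of the 4 globins, for each retina, in the globin-rich cells (filled circles) and in all other cells (open diamonds, with exact 95% binomial intervals). Blue stands for Dram2 wt/wt and orange for Dram2 ko/ko. The filled circles lie between 20.3% and 28.4% and the open diamonds between 2.32% and 5.09%.

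Counting error did not cover this gap. The exact 95% binomial (Clopper-Pearson) intervals of the share outside reached at most 8.50%, in ko/ko 2. The 1584 cells with a single globin UMI had 3.98% alpha (interval 3.07% to 5.06%). Cells of 10 to under 200 globin UMIs had 35.6%, cells of 200 to under 1000 had 25.1% and cells of 1000 or more had 21.8%. Single globin-rich cells with at least 100 globin UMIs ranged from 15.9% to 53.4%, all above the share outside. Hba-x had 78.1 UMIs per 1000 of Hbb-bs in the globin-rich cells and 4.57 outside, where it had 7 UMIs. Alas2 went the other way, with 1.79 per 1000 of Hbb-bs inside and 5.22 outside, from 8 UMIs.

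The same low alpha share was seen in each large cell type. It was 4.34% in photoreceptors (58 of 1336 UMIs, interval 3.31% to 5.58%), 2.13% in interneurons (5 of 235, 0.694% to 4.90%) and 3.90% in glia (3 of 77, 0.811% to 10.97%). Mesenchymal cells had 2 alpha UMIs of 14, and RPE and untyped cells none of 8 and 14. Hbb-bs was counted outside the globin-rich cells in all 6 retinas in photoreceptors (59.7 ± 25.2 CPM, SD, n = 6), interneurons (56.3 ± 32.2) and glia (43.1 ± 17.5). Hbb-bt was at 3.27 ± 1.86 CPM in photoreceptors, 3.71 ± 5.03 in interneurons and 3.33 ± 2.76 in glia. Hba-a1 and Hba-a2 were at 1.49 ± 1.35 and 1.43 ± 0.423 CPM in photoreceptors, and at 0 in 4 of 6 retinas in interneurons and 5 of 6 in glia.

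Within the pairs the copies took different shares from retina to retina. Hbb-bt made up 7.85%, 12.7% and 10.2% of beta globin UMIs in wt/wt replicates 1 to 3 and 8.07%, 5.55% and 10.9% in the ko/ko replicates. The lowest, ko/ko 2, had a binomial interval of 4.72% to 6.48% and the highest, wt/wt 2, 11.4% to 14.1%, so they differed by more than counting error. Each rested mostly on 1 cell, which held 62.2% of the globin UMIs of ko/ko 2 and 83.3% of those of wt/wt 2. In these cells Hbb-bt made up 5.27% and 13.4% of beta globin. The difference is therefore not read as one between retinas, and the split of the copies is uncertain by mapping. Over single globin-rich cells with at least 100 beta globin UMIs, the share ran from 3.57% to 15.9% with a median of 8.96%. Hba-a1 made up 53.4%, 47.2% and 43.8% of alpha globin UMIs in wt/wt and 53.1%, 53.6% and 44.1% in ko/ko. The 2 lowest were the retinas of batch 1.

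Per retina, with all its cells, Hbb-bs was at 1243, 548 and 1025 CPM in wt/wt replicates 1 to 3 and at 1131, 586 and 607 in the ko/ko replicates. Hbb-bt was at 106, 79.8 and 117 in wt/wt and at 99.3, 34.5 and 74.3 in ko/ko. Replicates 1 of both genotypes were the highest for Hbb-bs, and the genotypes overlapped for both genes. Hba-a1 was at 199, 90.5 and 122 in wt/wt and 242, 90.6 and 72.7 in ko/ko. Hba-a2 was at 174, 101 and 156 in wt/wt and 213, 78.5 and 92.2 in ko/ko, again with ko/ko 1 and wt/wt 1 the highest.

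**Figure D4:**
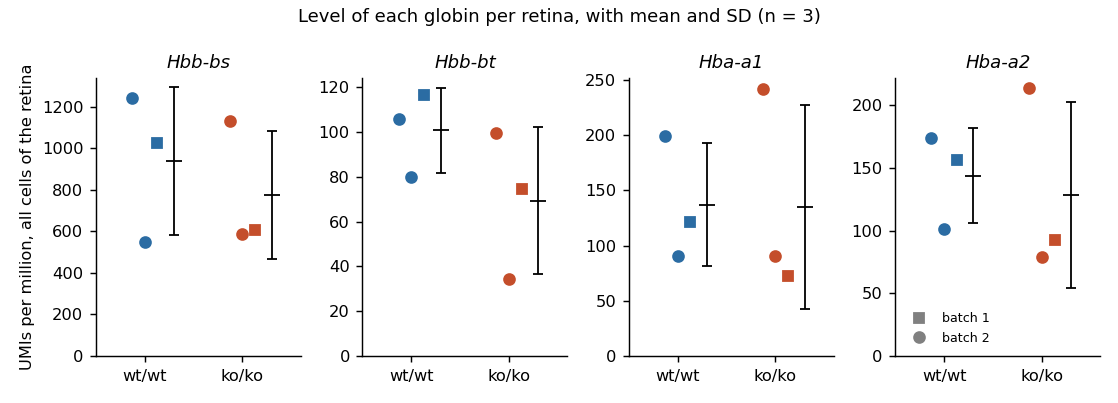
Level of each globin gene in CPM over all cells of a retina. Points stand for single retinas, squares for batch 1 and circles for batch 2, and the black line beside them for the mean with its SD (n = 3). For each gene the Dram2 wt/wt and ko/ko points overlap, and in ko/ko replicate 1 lies above the other 2.

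The design compares the genotypes, and for the globins this contrast is given as a description. In edgeR fits the SE is the size of the log2 difference divided by the square root of the F statistic of its test. It depends on the spread fitted over all genes kept, so SEs with and without the filter on low counts are not alike. In sums over all cells, the log2 difference of ko/ko from wt/wt was -0.23 (SE 0.37) for Hbb-bs, -0.49 (SE 0.36) for Hbb-bt, 0.02 (SE 0.48) for Hba-a1 and -0.12 (SE 0.39) for Hba-a2, all from edgeR's quasi-likelihood fit across 15330 genes. Leaving out 1 retina in turn moved these to between -0.60 and 0.05 for Hbb-bs, -0.83 and -0.16 for Hbb-bt, -0.70 and 0.40 for Hba-a1 and -0.70 and 0.14 for Hba-a2. The lowest of each came without ko/ko replicate 1. Adjusted p values by Benjamini-Hochberg were under 0.05 for 0 genes (0.00%). At an unadjusted p under 0.05 there were 101 genes, and limma-voom and DESeq2 also called 0, with 94 and 79.

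In photoreceptor sums the differences were larger, with -0.86 (SE 0.62) for Hbb-bs and -1.29 (SE 0.62) for Hbb-bt after the filter on low counts, where edgeR again called 0 of 13053 genes (109 at an unadjusted p under 0.05). Without that filter the Hbb-bt difference was -1.27 with an SE of 0.24, and it was the 1 gene of 30241 called (0.00331%). That is the value that chose it, and nothing is read from it. The counts behind it were 413, 318 and 653 Hbb-bt UMIs in wt/wt photoreceptors and 340, 129 and 72 in ko/ko. Of the ko/ko 3 retina, 414 further Hbb-bt UMIs were in the single untyped cell described above.

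Which cells were summed changed these values. The first 2 sets below were chosen after seeing the data. The untyped cell was picked for its globin UMIs and added to the retina with the lowest count. A smaller difference was fixed by that choice, and nothing is read from it. With that 1 untyped cell added to the photoreceptors the Hbb-bt count of ko/ko 3 was 486 and the log2 difference -0.63 (SE 0.24), and no gene was called (0.00% of 30242). With the 29 globin-rich photoreceptors left out, the counts were 19, 11 and 16 in wt/wt and 7, 3 and 11 in ko/ko. The difference was then -1.24 (SE 0.55) for Hbb-bt and -0.07 (SE 0.24) for Hbb-bs, again with no gene called (0.00% of 30229). At an unadjusted p under 0.05 these 2 fits had 604 and 605 genes. Over all cells without the globin-rich ones Hbb-bs was at 0.01 (SE 0.42) and Hbb-bt at -1.09 (SE 0.54), while Hba-a1 and Hba-a2 had too few counts to pass the filter.

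**Figure D5:**
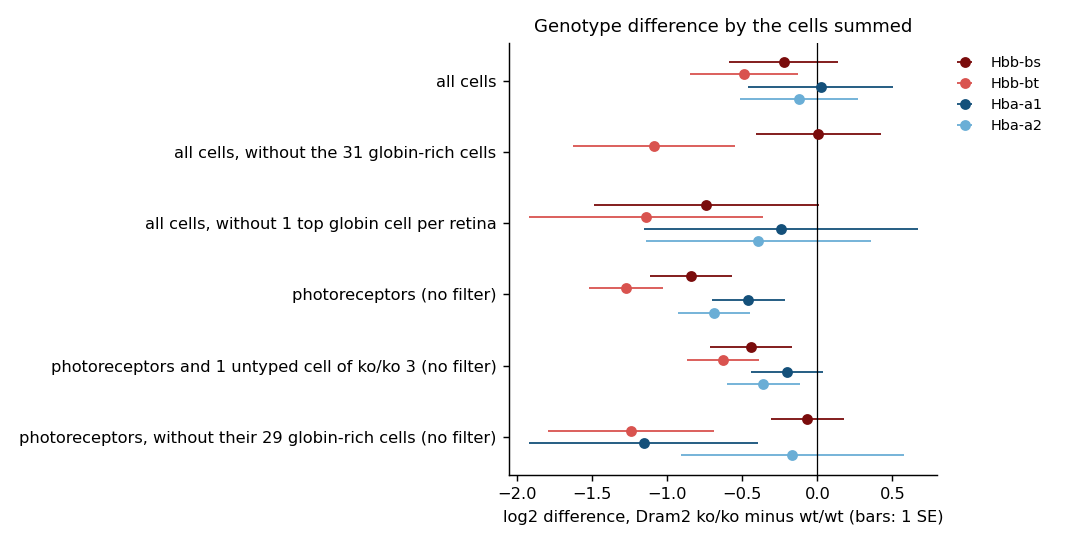
Log2 difference of Dram2 ko/ko from wt/wt for each globin gene in edgeR fits over 6 sets of cells, with bars of 1 SE. The 3 photoreceptor fits had no filter on low counts, and the alpha genes are missing where the filter removed them. Hbb-bt lies lowest in each row, at -0.49 in all cells and -1.27 in photoreceptors, and Hbb-bs moves from -0.84 in photoreceptors to -0.07 without their globin-rich cells.

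The batches, which no rule used to choose the genes, were compared by a test with genotype in the model. None of the 4 globins was called between batch 1 and batch 2, beside 2476 of 16297 genes (15.2%) in edgeR. The log2 difference of batch 1 from batch 2 was -0.73 (SE 0.44, adjusted p = 0.293) for Hba-a1, -0.25 (SE 0.39, adjusted p = 0.701) for Hba-a2, -0.17 (SE 0.36, adjusted p = 0.784) for Hbb-bs and 0.22 (SE 0.34, adjusted p = 0.705) for Hbb-bt. At an unadjusted p under 0.05 there were also 0 of the 4, beside 5256 of all genes. Limma-voom and DESeq2 called 0 of the 4, beside 16.4% and 13.4% of all genes, and with 4 members a count of 0 is close to these shares. The errors are wide, and with 2 retinas in batch 1 a change of the size of these SEs was not detectable. Without ko/ko replicate 1, the retina with 9 globin-rich cells, Hbb-bt was called at 0.59 (SE 0.17, adjusted p = 0.0179), where 39.0% of all genes were. Without the globin-rich cells Hbb-bs and Hbb-bt could be tested and 0 were called, at adjusted p = 0.693 and 0.923, beside 15.3% of 16287 genes.

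Likeness to the globins was measured as the Pearson correlation of log2(CPM + 1) over 36 sums of 6 retinas by 6 classes of cells, against the sum of the 4 globins. The 36 points share retinas, depth and the few globin-rich cells, so r is a description. Among 13790 genes with at least 100 UMIs the 5 highest apart from the 4 themselves were Hba-x (r = 0.838), Hbb-bh3 (0.828), Hba-ps4 (0.798), Gm15829 (0.744) and Alpk2 (0.700). The 3 globin relatives had 97.4% to 99.6% of their UMIs in the globin-rich cells, while Gm15829 and Alpk2, with 127 and 136 UMIs in all, had none there. The members themselves had r of 0.998 (Hbb-bs), 0.849 (Hba-a2), 0.842 (Hbb-bt) and 0.829 (Hba-a1).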

How the data were processed

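The authors digested 6 mouse retinas, prepared libraries with the 10x Genomics 3′ v2 kit and counted exonic reads on mm10 (GRCm38) with Cell Ranger 3.1.0. They deposited raw UMI counts per gene and cell, and a second table with the sample, genotype, batch and cell type of each cell. Cell types came from their Seurat clusters after integration over the batch, and 629 cells had none. The methods name no removal of red cells or doublets, and none was done here. All columns belonged to a retina, and 0 were left unused. GENCODE M21 named 52489 of the identifiers.

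UMI counts were summed per retina and fitted over all genes with edgeR 4.0.16 (glmQLFit, glmQLFTest, TMM, filterByExpr, adjusted p under 0.05), with genotype alone or with genotype and batch. The study compared genotypes within each cell type by limma-voom, and no model terms were found in its methods. Alternatives were limma 3.58.1, DESeq2 1.42.0, RLE factors, other filters and cell sets (the stricter one kept cells of 500 UMIs or more in which mitochondrial genes took up to 10%), thinning, and each retina left out. Thinned shares are expected values under sampling without replacement. A simulation put log2 changes of 2 up or down on genes above a count limit. Of these edgeR recovered 88.7% of 195 between batches (15589 tested) and 82.7% of 191 between genotypes (14970 tested). There were 10 and 13 false calls. The globin differences were smaller and rested on few cells, so these rates do not give the power for them. Intervals are exact at 95%, and limits for a count of 0 are 3 counts.

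The members and lists were chosen with earlier results of these data known. Named were the 4 globins, members of fixed lists (other globins, red cell, platelet, neutrophil, leukocyte and haem genes) with 20 or more UMIs or the leading 3, the 5 genes most like the globins, the 5 with the largest ratio in globin-rich cells, and Sag, Gnat1 and Malat1, and a few genes that the rule took are not reported here. Python 3.11.15, scipy 1.17.1 and R 4.3.3 were used. Promoters came from RefSeq.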

Additional observations from a re-analysis of the deposited data

How the results depend on the processing

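Leaving out 1 retina in turn moved the batch difference (log2, batch 1 minus batch 2) of Hbb-bs between -0.49 and 0.13, of Hbb-bt between -0.028 and 0.59 and of Hba-a2 between -0.64 and 0.17, so the sign of each turned, against main values of -0.17, 0.22 and -0.25. Between 0 and 1 globins were called, the 1 being Hbb-bt without ko/ko replicate 1. Hbb-bt also turned to -0.10 without the globin-rich cells, -0.063 in the stricter cells, -0.45 in photoreceptors and -0.24 without the top globin cell of each retina, an alternative chosen after seeing the data. Over all genes the batch calls, 2476 in the fit reported, were 1452 in the stricter cells, 755 in photoreceptors and 152 to 6341 with 1 retina left out. Hba-a1, at -0.73, kept its sign where it was tested but ran from -1.17 without wt/wt 3 to -0.31 without ko/ko 1. The cause of these turns was not tested. Between genotypes 1 globin was called under the alternative of photoreceptors with no filter, which was chosen after seeing the data, and 0 otherwise. Where a batch 1 retina was left out, the lone sample of that batch was assumed to vary like the others. Batch as the only term (17.1% of all genes called), or as a covariate of the genotype (0.00%), changed no globin call.

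The replicate number as a block (replicate block) gave 0 called globins and 0 called genes in edgeR, with 395 at an unadjusted p under 0.05. For a check of pairing, the log2 CPM of each gene was taken as its deviation from the mean of its genotype. Between same-numbered retinas these deviations correlated at 0.0728, 0.535 and 0.648, the last being the 2 retinas of batch 1. Those of wt/wt 1 correlated best with those of ko/ko 2 (0.478), so the numbers were not taken as pairs.

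The share of cells with a globin UMI moved under thinning to 300 UMIs, to 2.03% in photoreceptors, 1.95% in interneurons, 1.54% in glia and also in the mesenchymal class, and 1.88% for RPE, and under thinning to 500 UMIs, to 3.20% in interneurons, 2.64% in glia and 2.26% in RPE cells. Cells under the set depth were left out before thinning. Without the 5% of cells with the most UMIs, the globin-rich cells held 81.5% of the remaining globin UMIs, where 94.9% was the main value. That choice left 22 globin-rich cells, with 29.7% of the globin UMIs of all cells, so most globin UMIs were in the cells removed. The alpha share over all cells, 22.1%, was 3.95% without the globin-rich cells.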
